A study of Mus musculus with 114 samples.

Results

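The genes described here are those of the caveola, the small flask-shaped pit of the plasma membrane that covers much of the surface of an adipocyte. They were chosen by name: the caveolins *Cav1* and *Cav2*, the ATPase *Ehd2*, and the cavins *Cavin1*, *Cavin2* and *Cavin3* under their present or older symbols. Of these 6 genes, 3 (*Cav1*, *Cav2* and *Ehd2*) were analysed, out of 29132 genes with values, and the 3 cavins were not analysed here under either name. Caveolin 1 is the scaffold that bends the membrane into the pit, and caveolin 2 is its partner, which depends on caveolin 1 to reach the cell surface. Cavins form a coat over the caveolins, and EHD2 sits as a ring at the neck and holds the pit in the membrane. In adipocytes caveolae are known as a membrane reserve against stretch and as sites of the insulin receptor and of fatty acid uptake.

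The RNA came from adipocytes of the perigonadal depot of male C57BL/6J mice, which float to the top once the tissue is digested with collagenase. Mice started at 6 weeks of age on chow (CD) or on a high fat diet (HFD) and stayed on it for 8, 20 or 34 weeks, and all had been fasted before harvest. There were 6 mice in each group except the CD group at 34 weeks, which had 8, and each of the 38 mice gave 1 library merged from 3 technical replicates. Chow was either of 2 control formulas, and which mouse ate which is not given in the sources used here. Time on diet and age rose together, and neither can be told apart from anything else that differed between the harvests.

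The depth of a mouse's library lay between 9275711 and 15480388 reads on genes. Values are CPM, reads scaled to a library total of 1000000, so that 1 read was worth 0.0646 to 0.108 CPM. At 8 weeks the depth of the diets did not overlap (10562845 to 12611013 reads in CD and 13201234 to 15480388 in HFD mice). Within HFD, mice at 34 weeks (10714545 to 12271651) did not overlap those at 8 or 20 weeks. Within CD, mice at 20 weeks (13091365 to 14292115) did not overlap those at 8 or 34 weeks. The smallest count behind any value of the 3 genes was 2610 reads, so that the spread between mice and not the depth sets their error. All 8 markers of adipocytes were above 0 and summed to between 14755 and 46526 CPM per mouse. Markers of other cells were there too: 11 macrophage markers summed to between 304 and 15003 CPM, and 12 endothelial markers to between 34.6 and 590.6 CPM. In such a mixture fewer cells of a type and less RNA per cell cannot be told apart.

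*Cav2* and *Cav1* are neighbours on chromosome 6 of GRCm38, both on the plus strand: *Cav2* lies at chr6:17281185-17289130 and *Cav1* at chr6:17306335-17341328, with 17204 bases between them. *Ehd2* lies on chromosome 7, on the minus strand, at chr7:15946963-15967535. The 250 bases before the start of each caveolin gene are shown because the levels of this pair followed each other most closely across mice. They are from RefSeq (GRCm38.p6, plus strand, 5′ to 3′), overlap no annotated exon, and span chr6:17280935-17281184 for *Cav2* and chr6:17306085-17306334 for *Cav1*. Capitals mark matches, on either strand, to any of 7 short motifs. The GC box, a site of Sp family factors, was searched as GGGCGG. The promoter element named the CCAAT box was searched by the letters of its name, and the TATA box as TATAAA. The E-box, bound by helix-loop-helix factors, was searched as CANNTG. The core shared by many nuclear receptor sites was searched as AGGTCA. The AP-1 site, bound by Fos and Jun, was searched as TGANTCA. The forkhead core was searched as TGTTTAC, and no matches of different motifs overlapped in the stretches shown.

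Cav2: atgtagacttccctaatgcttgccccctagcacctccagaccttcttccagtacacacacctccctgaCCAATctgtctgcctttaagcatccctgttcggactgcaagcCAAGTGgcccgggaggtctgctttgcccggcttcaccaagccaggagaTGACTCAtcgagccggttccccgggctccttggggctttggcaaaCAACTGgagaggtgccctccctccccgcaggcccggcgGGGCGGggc

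Cav1: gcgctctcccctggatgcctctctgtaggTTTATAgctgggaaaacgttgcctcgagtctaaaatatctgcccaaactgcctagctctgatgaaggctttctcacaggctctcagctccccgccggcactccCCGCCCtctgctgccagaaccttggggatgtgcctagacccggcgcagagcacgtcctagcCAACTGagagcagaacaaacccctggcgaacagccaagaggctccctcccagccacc

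Both stretches held 1 match to the GC box, which 32.7% of 32851 promoter stretches of this length had. Both also held an E-box, CAACTG, at -47 to -42 from the start in *Cav2* and at -57 to -52 in *Cav1*, while an E-box of any kind was found in 66.2% of stretches. The *Cav2* stretch had in addition an AP-1 match, TGACTCA, at -92 to -86 (6.75% of stretches) and a CCAAT match (33.9%), neither of which was found in *Cav1*. The *Cav1* stretch had a TATA match on the opposite strand at -221 to -216 (12.4%). The nuclear receptor core (14.02%) and the forkhead core (3.17%) had no match in either. A further RefSeq start of *Cav1* and the *Ehd2* start are not shown, the latter because its stretch overlaps an exon of *Ehd2*. The *Ehd2* stretch also held 1 GC box, 1 CCAAT and 1 E-box match. The GC box and E-box were thus not particular to the caveolin pair. The stretch before the further *Cav1* start held 1 E-box match and no GC box or TATA match. These matches are letters only and were not tied to the values below.

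*Cav1* was the most abundant of the 3 transcripts in every group when compared per kilobase of exon. After 8 weeks of CD its level was 846 ± 135 CPM per kb (SD, n = 6), against 152 ± 24.4 for *Cav2* and 206 ± 37.3 for *Ehd2*. Per kb, *Cav1* exceeded *Cav2* by 4.36 to 7.46 times and *Ehd2* by 2.55 to 6.00 times in single mice. Between mice of a group the coefficient of variation of CPM was lowest in HFD mice at 20 weeks for the caveolins (5.71% for *Cav1* and 4.13% for *Cav2*) and in HFD mice at 8 weeks for *Ehd2* (6.63%), and highest in *Cav1* of HFD mice at 34 weeks (35.2%).

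**Figure D1:**
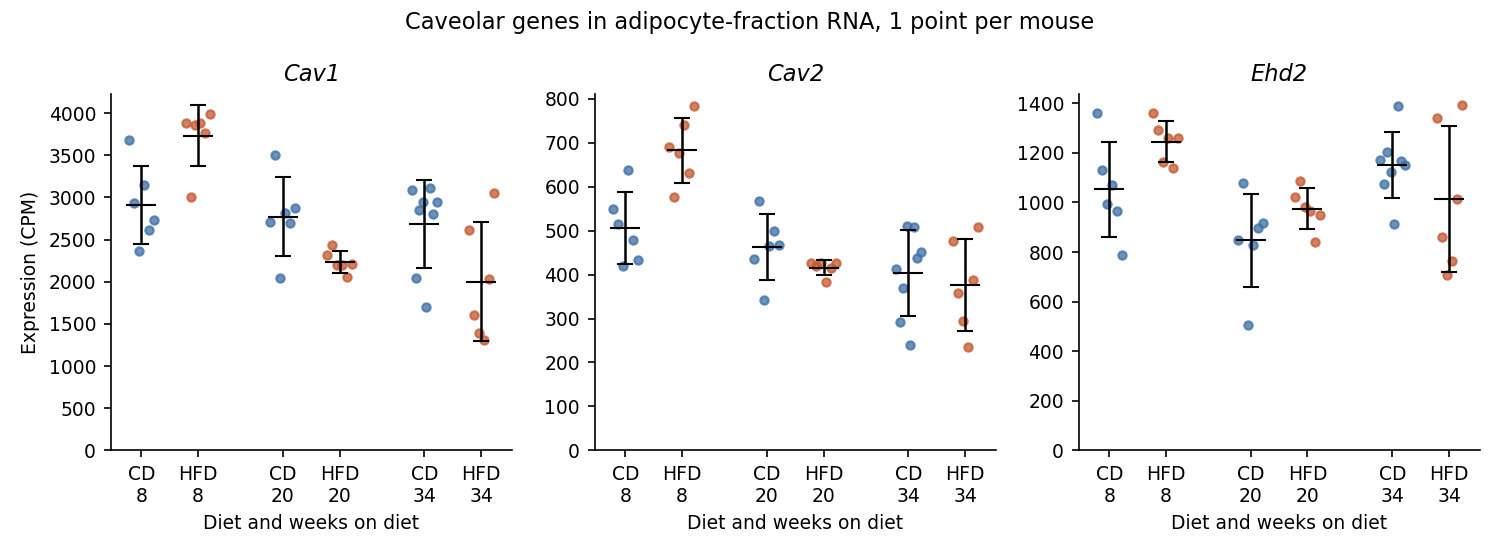
CPM of *Cav1*, *Cav2* and *Ehd2* (y axis, from 0) in each of 38 mice, by diet and weeks on diet (x axis); points are mice, bars are the mean and SD of a group. HFD mice at 8 weeks hold the highest group mean of each gene, and all 6 HFD mice at 20 weeks sit below all 6 at 8 weeks.

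The first question was whether HFD changed these transcripts at each time. After 8 weeks *Cav2* was higher on HFD, *Cav1* and *Ehd2* did not pass the test, and by 34 weeks *Cav1* was lower on HFD. The *Cav2* call at 8 weeks was lost in 4 of 12 other settings, and the *Cav1* call at 34 weeks in 2 of 12. Each comparison used limma on log2(CPM + 1), adjusted by Benjamini and Hochberg's method across 10343 tested genes, and called an adjusted p under 0.05.

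At 8 weeks *Cav2*, the partner caveolin, ran from 419 CPM (lowest) through a median of 497 to 638 (highest) in CD mice and from 577 through 684 to 785 in HFD mice. The groups overlapped, with 4 of 6 HFD mice above every CD mouse. *Cav2* rose by 0.44 ± 0.16 on the log2 scale (SE, limma adjusted p = 0.0272).

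*Cav1*, the scaffold, had 2366, 2836 and 3684 CPM (lowest, median, highest) in CD mice at 8 weeks and 3007, 3871 and 3984 in HFD mice. Only HFD mouse 2, the lowest, lay within the CD range. The log2 difference was 0.37 ± 0.17 (limma unadjusted p = 0.0369, adjusted p = 0.0754). *Ehd2*, the neck protein, had 789, 1033 and 1362 CPM in CD and 1140, 1259 and 1361 in HFD mice, so that every HFD mouse lay within the CD range (0.26 ± 0.15, adjusted p = 0.159). Thus 1 of the 3 genes was called at 8 weeks, where 44.9% of all genes tested were called, and none had diets without overlap, against 22.8% of all genes.

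At 20 weeks none of the 3 was called, where 57.0% of all genes were, and again none had diets without overlap (37.2% of all genes). *Cav1* had 2045, 2763 and 3500 CPM in CD and 2057, 2206 and 2438 in HFD mice, a log2 difference of -0.29 ± 0.17 (adjusted p = 0.134). All 6 HFD mice lay below the CD mean but within the CD range. *Cav2* gave 342, 467 and 568 CPM in CD and 382, 422 and 427 in HFD mice (-0.14 ± 0.16, adjusted p = 0.482). *Ehd2* pointed the other way, with 507, 874 and 1077 CPM in CD and 840, 975 and 1087 in HFD mice (0.23 ± 0.15, adjusted p = 0.187). At an unadjusted p under 0.05 the count at 20 weeks was also 0, but edgeR and DESeq2 each called 1 gene, *Cav1*, at adjusted p = 0.0122 and 0.0107.

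At 34 weeks *Cav1* fell by 0.47 ± 0.16 on the log2 scale (adjusted p = 0.0161), and 43.2% of all genes were called. It had 1703, 2899 and 3112 CPM in CD and 1305, 1823 and 3047 in HFD mice. The groups overlapped, as they did for each of the 3 genes (2.46% of all genes had no overlap), with 3 HFD mice below every CD mouse. The other 3 lay within the CD range, with HFD mice 1 and 6 the highest at 2619 and 3047 CPM. Without HFD mouse 3 or 4 the call on *Cav1* was lost (adjusted p = 0.0667 and 0.0674). *Cav2* had 240, 425 and 511 CPM in CD and 235, 373 and 508 in HFD mice (-0.11 ± 0.15, adjusted p = 0.586). *Ehd2* had 914, 1159 and 1390 CPM in CD and 709, 938 and 1395 in HFD mice (-0.22 ± 0.14, adjusted p = 0.202).

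These differences are on CPM scaled to the reads on genes, and over all genes tested the median log2 difference was 0.108, 0.136 and 0.0737 at 8, 20 and 34 weeks. With TMM factors, which balance the bulk of genes, those medians became 0.00176, -0.0521 and -0.0144, and calls higher and lower on HFD at 8 weeks went from 3083 and 1565 to 2299 and 2306. At 20 weeks they went from 3957 and 1937 to 2807 and 3248, and at 34 weeks from 2840 and 1628 to 2292 and 2253. On that scale *Cav2* at 8 weeks was not called (0.33, adjusted p = 0.109), *Cav1* at 20 weeks was lower on HFD (-0.49, adjusted p = 0.0150), and *Cav1* at 34 weeks was still lower (-0.56, adjusted p = 0.00581).

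The next question was whether the response to HFD differed between times, tested as an interaction. For *Cav1* the HFD against CD difference was lower at 34 than at 8 weeks by -0.84 ± 0.23 (adjusted p = 0.00698), and leaving out any 1 mouse kept this call. *Cav2* and *Ehd2* had the same sign (-0.55 ± 0.22, adjusted p = 0.0614, and -0.48 ± 0.21, adjusted p = 0.0758). So 1 of 3 was called, where 28.8% of all genes were. Between 20 and 8 weeks 0 of 3 were called with limma (4.49% of all genes), though *Cav1* (-0.66 ± 0.24, adjusted p = 0.0845) and *Cav2* (-0.58 ± 0.23, adjusted p = 0.110) had an unadjusted p of 0.00890 and 0.0166. DESeq2 called *Cav1* there (adjusted p = 0.0362) and edgeR called none. Between 34 and 20 weeks 0 of 3 were called by limma, edgeR or DESeq2 (10.5% of all genes with limma), with *Ehd2* at an unadjusted p of 0.0343.

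Of the comparisons made within a diet or a time, those over time within HFD mice gave the largest differences in the caveolins. *Cav1* and *Cav2* both fell from 8 to 20 weeks, by 0.73 ± 0.17 (adjusted p = 0.00132) and 0.71 ± 0.16 (adjusted p = 0.00132) on the log2 scale. *Ehd2* differed by -0.36 ± 0.15 (adjusted p = 0.0626), and it was called with TMM factors, edgeR and DESeq2 (adjusted p = 0.0316, 0.0308 and 0.0296). For all 3 genes every HFD mouse at 20 weeks lay below every HFD mouse at 8 weeks, as was so, in either direction, for 24.6% of all genes. In that comparison 36.5% of all genes were called.

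From 8 to 34 weeks of HFD *Cav1* fell by 0.96 ± 0.17 (adjusted p = 2.56e-05), from a mean of 3731 ± 362 to 2002 ± 705 CPM (SD, n = 6 each). *Cav2* fell by 0.90 ± 0.16 (adjusted p = 3.73e-05), from 683 ± 74.4 to 376 ± 104 CPM. The *Cav2* groups did not overlap (24.0% of all genes), whereas HFD mouse 6 at 34 weeks, at 3047 CPM of *Cav1*, just overlapped the lowest 8 week mouse at 3007. *Ehd2* went from 1245 ± 82.5 to 1014 ± 294 CPM (-0.34 ± 0.15, adjusted p = 0.0551), and it was called with TMM factors, edgeR and DESeq2 (adjusted p = 0.0153, 0.0286 and 0.0185). Thus 2 of 3 genes were called, where 52.5% of all genes were. From 20 to 34 weeks of HFD 0 of 3 were called with limma, edgeR or DESeq2, and 0 had an unadjusted p under 0.05 with limma (30.2% of all genes called).

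**Figure D2:**
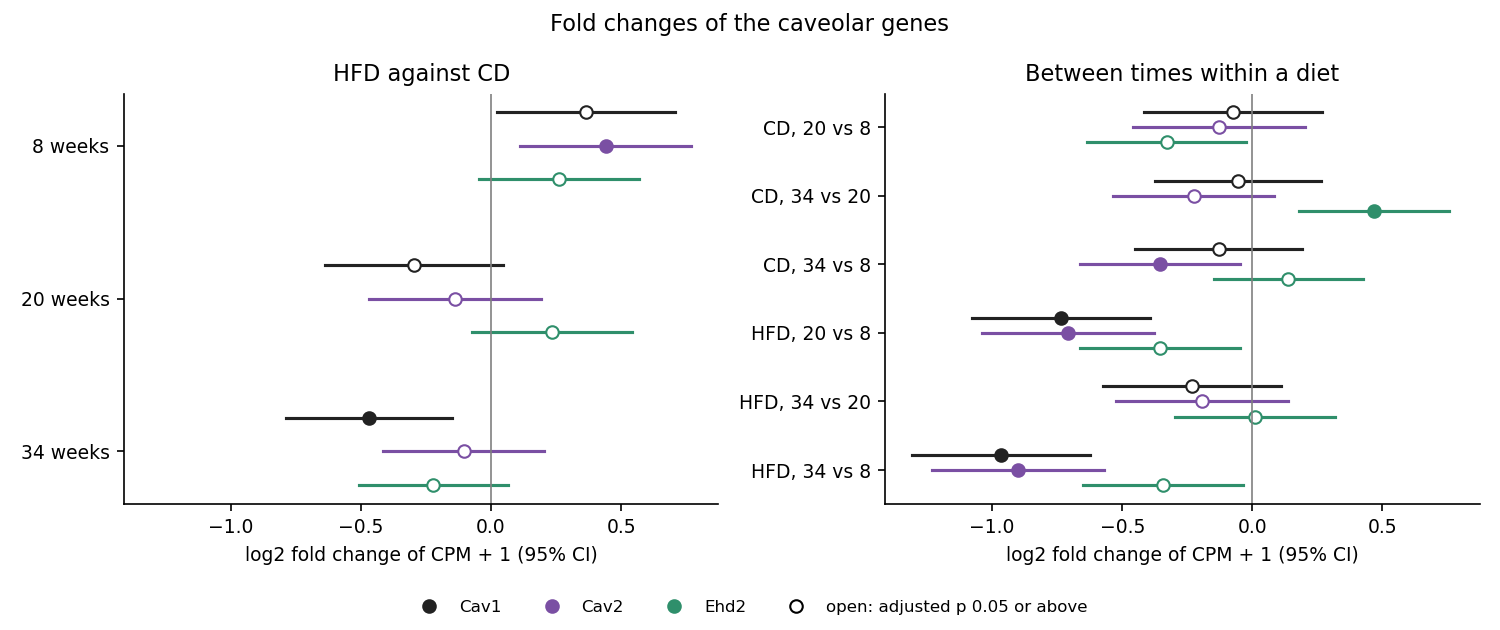
log2 fold changes of CPM + 1 (x axis) with 95% confidence intervals from limma for *Cav1*, *Cav2* and *Ehd2*, for HFD against CD at each time (left) and between times within a diet (right); filled points passed an adjusted p of 0.05. The filled points of *Cav1* and *Cav2* in HFD mice lie between -0.96 and -0.71.

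Over time in CD mice, *Cav2* fell and *Ehd2* rose in 1 comparison each, and *Cav1* was not called. *Cav1* differed by -0.07 ± 0.17 from 8 to 20 weeks and by -0.13 ± 0.16 from 8 to 34 weeks (adjusted p = 0.867 and 0.483). *Cav2* fell by 0.35 ± 0.15 from 8 to 34 weeks (adjusted p = 0.0406, 64.7% of all genes called), from 506 ± 81.4 (n = 6) to 403 ± 97.6 CPM (n = 8). That call ended when any 1 of 6 mice was left out, CD mice 2 and 5 at 34 weeks among them. Without both of these the difference was -0.17 (adjusted p = 0.298). These were the 2 lowest mice for *Cav1* and *Cav2* in their group, and their summed macrophage markers, 7875 and 12319 CPM, stood above the 1190 to 5015 CPM of the other 6. *Ehd2* rose by 0.47 ± 0.14 from 20 to 34 weeks of CD (adjusted p = 0.00480, 62.5% of all genes called), with 6 of 8 mice at 34 weeks above every mouse at 20 weeks. With TMM factors that difference was 0.32 (adjusted p = 0.0514) while *Cav2* fell by 0.37 (adjusted p = 0.0421), and the median over all genes was 0.166 in CPM and 0.0282 with TMM factors. From 8 to 20 weeks of CD 0 of 3 were called by limma, edgeR or DESeq2 (3.58% of all genes with limma), with *Ehd2* at an unadjusted p of 0.0363.

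Put in order, the *Cav1* level ran from HFD at 8 weeks through CD at 8, 20 and 34 weeks to HFD at 20 and then 34 weeks, and no 2 neighbours in that order differed beyond their spread by limma (adjusted p from 0.0754 to 0.867). *Cav2* ran from HFD at 8 weeks through CD at 8 and 20 weeks, HFD at 20 and CD at 34 to HFD at 34 weeks, and only the top neighbours, HFD and CD at 8 weeks, differed. That call was lost with TMM factors. The order of *Ehd2* was another, HFD at 8, CD at 34, CD at 8, HFD at 34, HFD at 20 and CD at 20 weeks, with no neighbours differing (adjusted p from 0.187 to 0.962).

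Because the 3 genes were read in the same libraries, their ratios within a mouse do not depend on how a library was scaled. The *Cav1* to *Cav2* ratio was lower on HFD at 20 and 34 weeks, and the *Ehd2* to *Cav1* ratio was higher on HFD at both. These 6 comparisons were tested with two-sided exact permutation tests over mice, adjusted over the 6.

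The log2 ratio of *Cav1* to *Cav2* at 34 weeks ran from 2.53 to 2.94 in CD and from 2.17 to 2.58 in HFD mice. These ranges overlapped at their ends only. The means were 2.75 ± 0.14 (SD, n = 8) and 2.38 ± 0.16 (n = 6), a difference of -0.36 (exact permutation p = 0.00133, adjusted p = 0.00649). At 20 weeks the difference was -0.16 (exact permutation p = 0.0173, adjusted p = 0.0346), with 2.43 to 2.63 in CD and 2.31 to 2.54 in HFD mice. At 8 weeks it was -0.07 (exact permutation p = 0.331, adjusted p = 0.344).

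The log2 ratio of *Ehd2* to *Cav1* at 20 weeks ran from -2.01 to -1.58 in CD and from -1.29 to -1.16 in HFD mice, without overlap. The difference was 0.53, with *Ehd2* the higher relative to *Cav1* on HFD (exact permutation p = 0.00216, adjusted p = 0.00649). At 34 weeks the ranges overlapped (-1.40 to -0.90 in CD and -1.13 to -0.78 in HFD mice) and the difference was 0.25 (exact permutation p = 0.0246, adjusted p = 0.0370). Leaving out any of 10 of the 14 mice took that adjusted p above 0.05, up to 0.0839. At 8 weeks the difference was -0.11 (exact permutation p = 0.344, adjusted p = 0.344).

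**Figure D3:**
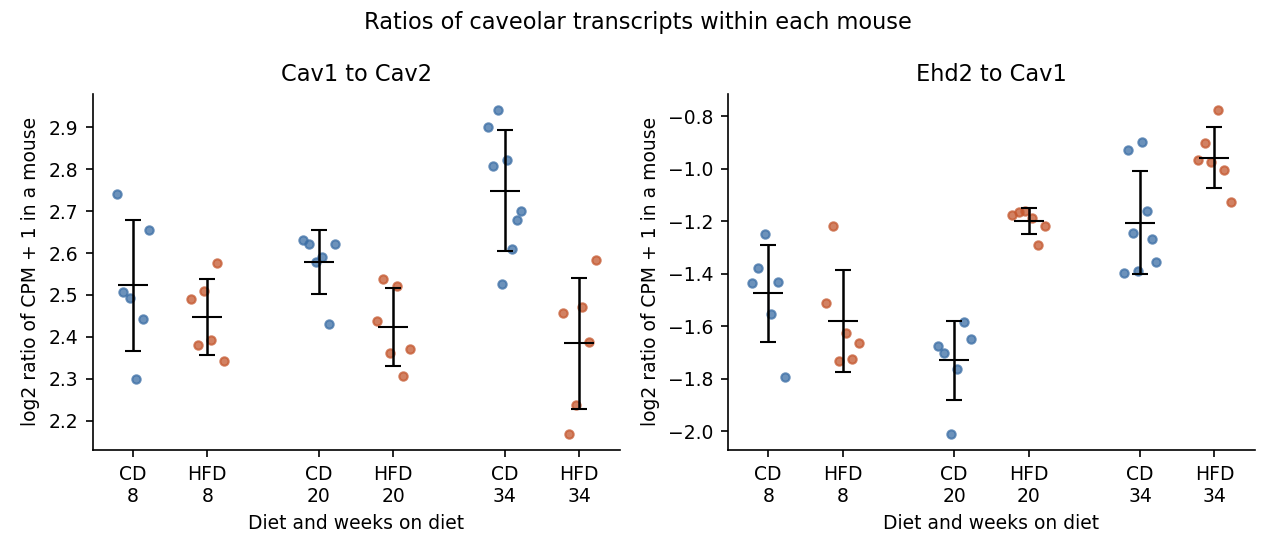
log2 ratio of CPM + 1 within each mouse (y axis) for *Cav1* to *Cav2* (left) and *Ehd2* to *Cav1* (right), by diet and weeks on diet (x axis); points are mice and bars the mean and SD. At 20 weeks the *Ehd2* to *Cav1* ratios of the diets do not overlap, and at 34 weeks the *Cav1* to *Cav2* ratio of HFD mice averages 2.38 against 2.75 in CD mice.

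Mice also differed among themselves within a group, and the 3 transcripts did so together. Taking each mouse as a deviation from its group mean (38 mice), *Cav1* and *Cav2* had r = 0.91 and rho = 0.85, *Cav1* and *Ehd2* r = 0.83 and rho = 0.75, and *Cav2* and *Ehd2* r = 0.75 and rho = 0.66. The permutation p of each r, shuffling mice within groups, was 1e-05, the smallest that 99999 resamples can give (adjusted over 12 relations, 4e-05). That of rho was 1e-05, 1e-05 and 7e-05 (adjusted p = 6e-05, 6e-05 and 0.00028). Without the 2 mice farthest on the first gene r was 0.88, 0.81 and 0.72. Within single groups r ranged from 0.18 to 0.96 for the caveolins and from -0.18 to 0.99 for *Cav1* and *Ehd2*. All points share library preparation and depth between the genes of a mouse.

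**Figure D4:**
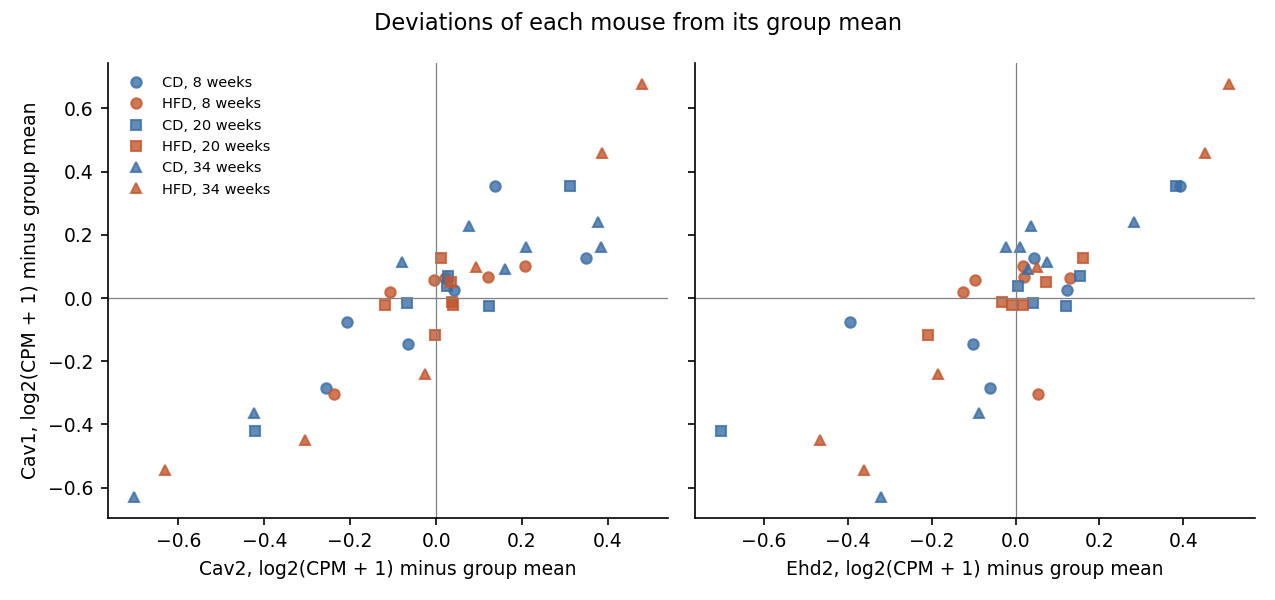
log2(CPM + 1) of *Cav1* minus the group mean (y axis) against that of *Cav2* (left) and *Ehd2* (right) in 38 mice; colours are diets and shapes weeks on diet. Mice low in *Cav1* for their group were low in *Cav2* too (r = 0.91), and the widest spread is at 34 weeks.

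Some cell type markers were related to these deviations over all mice, though not alike in every group. Those of endothelial cells had no relation that passed. The part of the markers in the results was not tested. The mean of the adipocyte markers had r = 0.56 and rho = 0.38 with *Cav1* (permutation p = 0.00941 and 0.0445, adjusted p = 0.0188 and 0.0763), and r = 0.36 without the 2 farthest mice. That of the macrophage markers had r = -0.42 and rho = -0.43 with *Cav1* (permutation p = 0.0155 and 0.0150, adjusted p = 0.0265 and 0.0300), and r = -0.24 without the 2 farthest. Within single groups that r ran from -0.98 to 0.49 and was above 0 in 2 of 6 groups, and that of the adipocyte markers from -0.73 to 0.97, above 0 in 3. The endothelial markers, from a cell type rich in caveolae, had r = -0.11 and rho = -0.15 with *Cav1* (permutation p = 0.555 and 0.399, adjusted p = 0.621 and 0.435). For *Ehd2* the adipocyte markers gave r = 0.56 and rho = 0.49 (permutation p = 0.00155 and 0.00617, adjusted p = 0.00465 and 0.0148), and the macrophage markers r = -0.36 and rho = -0.50 (permutation p = 0.0471 and 0.00376, adjusted p = 0.0628 and 0.0113). For *Cav2* they gave r = 0.56 and rho = 0.37 (permutation p = 0.00656 and 0.0511, adjusted p = 0.0157 and 0.0767), and r = -0.39 and rho = -0.33 (permutation p = 0.0393 and 0.0759, adjusted p = 0.0589 and 0.101). Without the 2 farthest mice r for *Ehd2* was 0.63 (adipocyte) and -0.59 (macrophage). Within single groups it was above 0 in 5 and 1 of 6. For *Cav2* r became 0.43 and -0.22. Within single groups it ran from -0.89 to 0.86 and from -0.91 to 0.56.

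The HFD mice at 34 weeks show this by mouse. Mice 1 and 6, with 2619 and 3047 CPM of *Cav1*, had the least macrophage marker sum of the group, 7225 and 5064 CPM, and the most adipocyte marker sum, 31741 and 35671 CPM. Mice 3 and 4, with 1392 and 1305 CPM of *Cav1*, had 13498 and 15003 CPM of macrophage markers. Their adipocyte markers summed to 14755 and 19826 CPM. The low and high *Cav1* mice of that group thus differed in both marker sums. Mice of other groups went the other way. CD mouse 3 at 20 weeks had the lowest *Cav1* of its group (2045 CPM) and its least macrophage sum (479 CPM). HFD mouse 2 at 8 weeks had the lowest *Cav1* of its group (3007 CPM) and its most adipocyte sum (40744 CPM).

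By group, the macrophage sum ran from 1113 to 3143 CPM in HFD mice at 8 weeks, from 4368 to 8255 at 20 weeks and from 5064 to 15003 at 34 weeks. In CD mice it ran from 304 to 1569, from 479 to 3302 and from 1190 to 12319 CPM. The adipocyte sum of HFD mice ran from 27987 to 40744, from 22930 to 33516 and from 14755 to 35671 CPM. From 8 to 34 weeks of HFD 6 of 8 adipocyte markers fell and 0 of 12 endothelial markers were called. Of 11 macrophage markers 9 rose and 1 fell. In that comparison *Cav1* and *Cav2* fell, and 52.5% of all genes were called. In CD mice over the same span 9 of 11 macrophage markers rose and 0 fell, and 3 of 8 adipocyte markers fell and 1 rose. *Cav2* fell by 0.35 and *Cav1* differed by -0.13 there, where 64.7% of all genes were called.

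Between diets, adipocyte markers were lower on HFD in 1, 5 and 7 of 8 at 8, 20 and 34 weeks, with 0 higher (median -0.30, -0.69 and -0.57). Endothelial markers were higher on HFD in 12, 8 and 9 of 12, with 0 lower. Macrophage markers were higher on HFD in 7, 8 and 9 of 11, with 1 lower at 20 weeks. Of the other lists, fibroblast markers were higher in 4, 6 and 4 of 6 tested, mural cell markers in 5, 5 and 3 of 8 (with 1 lower at 20 and at 34 weeks), and mesothelial markers in 2, 0 and 0 of 3. All these counts stand beside 44.9%, 57.0% and 43.2% of all genes called at 8, 20 and 34 weeks, and some lie near those shares. 1 of 10 mural markers was at 0 in all HFD mice at 34 weeks, and no other marker was at 0 throughout a group.

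The genes whose deviations were most like those of *Cav1* over the 38 mice, out of all genes tested and leaving out predicted genes, were *Ak3* (r = 0.92), *Sspn* (0.91), *Cav2* (0.91), *Elmo3* (0.90) and *Pitpnb* (0.89). *Ak3* encodes a mitochondrial adenylate kinase and *Sspn* sarcospan, a membrane protein of the dystrophin complex. For *Cav2* they were *Cav1* (0.91), *Isoc1* (0.89), *Elmo3* (0.87), *Sspn* (0.87) and *Pitpnb* (0.87). For *Ehd2* they were *Sspn* (0.91), *Syde1* (0.90), *Zfand3* (0.85), *Aoc3* (0.84) and *Slc1a5* (0.84). *Sspn* alone stood among the 5 of all 3 genes. These values describe a ranking and carry no test.

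Transcripts of other proteins that build, pinch off or phosphorylate caveolae formed a list of 15 genes. Of these 14 were analysed and 12 passed the filter on low values. On HFD 5 rose and 2 fell at 8 weeks, 7 rose and 1 fell at 20 weeks, and 7 rose and 2 fell at 34 weeks. The shares of all genes called at these times were 44.9%, 57.0% and 43.2%. The median of the 12 was 0.11, 0.65 and 0.32 on the log2 scale, beside 0.108, 0.136 and 0.0737 over all genes. *Cav3*, the muscle caveolin, stayed at or under 0.333 CPM in every mouse and was not tested.

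*Ehd4*, a paralogue of *Ehd2*, rose at all 3 times. It ran from 14.1 to 81.4 CPM in CD and from 123 to 242 CPM in HFD mice at 20 weeks, without overlap, as for 37.2% of all genes (2.34 ± 0.38, adjusted p = 5.08e-06). *Ehd3*, another paralogue, rose at 8 and 20 weeks (1.63 and 2.06) and not at 34 weeks (0.07, adjusted p = 0.884), and this diet difference was itself lower at 34 than at 20 weeks (-1.99 ± 0.50, adjusted p = 0.0101). *Ehd1* was not called at any time (limma adjusted p from 0.0885 to 0.775).

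*Fyn*, a Src-family kinase that phosphorylates caveolin 1, rose at all 3 times. At 20 weeks its mean was 3.63 ± 3.64 CPM on CD and 31.3 ± 7.83 CPM on HFD (SD, n = 6 each). *Src* rose at 8 and 20 weeks (0.47 and 1.85) and had -0.20 at 34 weeks (adjusted p = 0.364). *Flna*, the actin crosslinker filamin A that tethers caveolae, rose at all 3 times (0.90, 2.15 and 1.30). *Pacsin3*, a membrane-bending F-BAR protein, was the only gene of this list that fell at all 3 times (-0.89, -1.65 and -1.53). Its relative *Pacsin2* rose at 20 and 34 weeks (0.51 and 0.45). *Fyn*, *Ehd4* and *Flna* are also known from cells other than adipocytes. Most markers of macrophages and endothelial cells rose on HFD too, and the part of those cells was not tested.

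Genes of proteins known to reside or signal in adipocyte caveolae formed a list of 10, all tested as transcripts. On HFD 1 rose and 2 fell at 8 weeks, 1 rose and 4 fell at 20 weeks, and 1 rose and 7 fell at 34 weeks (median -0.01, -0.32 and -0.53), where 44.9%, 57.0% and 43.2% of all genes were called. From 8 to 34 weeks of HFD 8 of the 10 fell and none rose (52.5% of all genes called). Adipocyte markers fell beside them, 5 and 7 of 8 on HFD at 20 and 34 weeks and 6 of 8 from 8 to 34 weeks of HFD, and their part in these values was not tested. *Cd36*, the fatty acid translocase, was the riser at each time: it went from 4448 ± 306 to 5701 ± 492 CPM at 8 weeks and from 4070 ± 748 (n = 8) to 6193 ± 809 CPM (n = 6) at 34 weeks (0.62 ± 0.11, adjusted p = 6.45e-05). Its diets did not overlap at 8 weeks (4057 to 4991 against 5098 to 6220 CPM), as was so for 22.8% of all genes.

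*Insr*, the insulin receptor, fell at all 3 times (-0.86, -1.14 and -0.58). At 8 weeks it ran from 306 to 402 CPM in CD and from 144 to 277 CPM in HFD mice, without overlap (22.8% of all genes). *Irs1*, its docking protein, fell at 8 and 34 weeks (-0.63 and -0.93). *Slc2a4*, the insulin-regulated glucose transporter, fell at 20 and 34 weeks (-0.64 and -0.86) and not at 8 weeks (-0.11, adjusted p = 0.623). *Plin1*, the lipid droplet coat protein, fell at 20 and 34 weeks (-0.68 and -0.62), and so did *Lipe*, the hormone-sensitive lipase (-0.53 and -0.70). Of these *Slc2a4* and *Aoc3*, an amine oxidase of the adipocyte surface, had a diet difference that was lower at 34 than at 8 weeks, as *Cav1* did (-0.75 ± 0.24, adjusted p = 0.0187, and -0.66 ± 0.24, adjusted p = 0.0364). Those 2 of 10 were the only calls of the list there, beside 28.8% of all genes and 3 of 8 adipocyte markers, all lower.

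**Figure D5:**
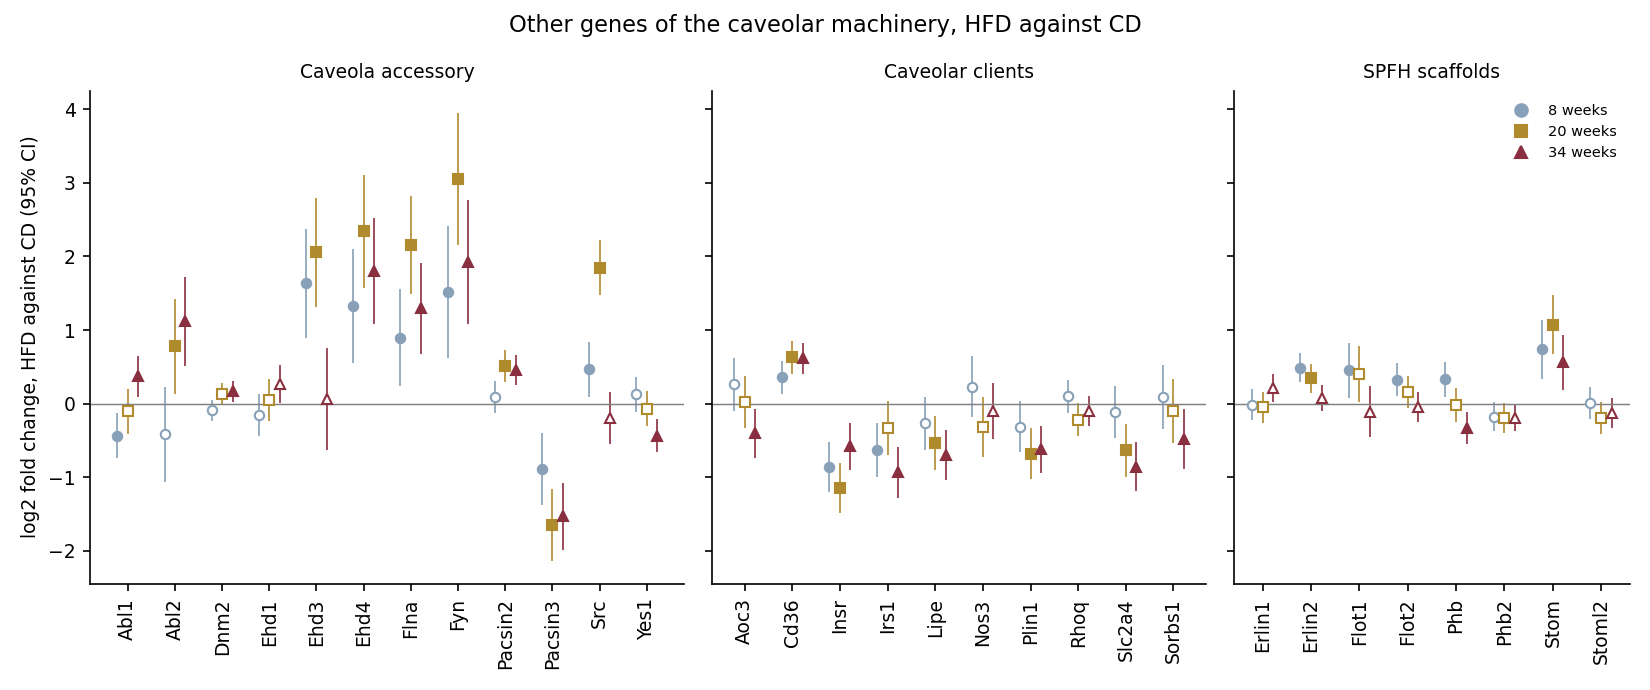
log2 fold change of transcripts, HFD against CD, with 95% confidence intervals (y axis) at 8, 20 and 34 weeks. The x axis holds 12 caveola accessory genes, 10 genes of caveolar proteins and 8 SPFH scaffold genes. Filled symbols passed an adjusted p of 0.05. *Fyn*, *Ehd4* and *Flna* are higher and *Pacsin3* and *Insr* lower on HFD at all 3 times.

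Flotillins and their relatives of the SPFH family are membrane scaffolds separate from the caveolins, and their transcripts were read here. Of 8 tested, 5 rose and 0 fell on HFD at 8 weeks, 2 rose and 0 fell at 20 weeks, and 1 rose and 1 fell at 34 weeks (median 0.33, 0.07 and -0.08), beside 44.9%, 57.0% and 43.2% of all genes called. *Stom*, stomatin, rose at all 3 times (0.74, 1.07 and 0.56). *Erlin2*, an erlin of the endoplasmic reticulum, rose at 8 and 20 weeks (0.49 and 0.34, the latter 0.15 with TMM factors). *Flot1* and *Flot2* rose at 8 weeks (0.45 and 0.33) and had 0.40 and 0.16 at 20 weeks and -0.11 and -0.05 at 34 weeks, which did not pass. *Phb*, a prohibitin of the inner mitochondrial membrane, rose by 0.33 at 8 weeks and fell by 0.33 at 34 weeks, and the difference between these times passed the test (-0.66 ± 0.16, adjusted p = 0.00243).

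The genes around the caveolin pair on chromosome 6 were read as well. Of 11 genes, 6 passed the filter, and on HFD 4 rose and 1 fell at each time (median 0.63, 1.23 and 0.75), where 44.9%, 57.0% and 43.2% of all genes were called. *Tes*, which encodes the focal adhesion protein testin, rose at all 3 times, from 2.05 ± 1.07 to 8.56 ± 4.13 CPM at 8 weeks (n = 6 each). *Met*, the hepatocyte growth factor receptor, fell at all 3 times (-0.75, -1.37 and -1.03). *Mdfic* and *Capza2* rose at all 3 times, and *Tfec*, a transcription factor of macrophages, rose at 20 and 34 weeks (2.72 and 0.88). In none of the 6 did limma call a different diet response at 34 and 8 weeks, the comparison in which *Cav1* was called. Over all genes 28.8% were called there, and 6 genes are too few to set the neighbours apart from *Cav1*.

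Of the genes called in these lists, 5 had a difference on HFD that was over 1.5 times smaller with TMM factors. *Erlin2* at 20 weeks went from 0.34 to 0.15, *Dnm2* at 34 weeks from 0.17 to 0.07, and *Pacsin2* at 20 weeks from 0.51 to 0.32. *Flot2* and *St7* at 8 weeks went from 0.33 to 0.22 and from 0.26 to 0.16. Calls of list genes on that scale were not tested.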

How the data were processed

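RNA-seq of perigonadal adipocytes from 38 male mice (6 groups of diet and time) was analysed. According to the methods and the submitters' processing notes, the authors aligned reads to mm10 with STAR, counted them with featureCounts on GENCODE vM2 exon unions and deposited CPM with the technical replicates merged; the version of STAR used is not settled by those notes (2.5 and 2.5.2b). The methods name TMM, but each column sums to 1000000. Whole reads were recovered from the CPM for 100% of values (tolerance 0.1 reads) and used for edgeR 4.0.16 and DESeq2 1.42.0 only.

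Values were tested as log2(CPM + 1), pseudocount 1, for genes with a mean above 2.0, with limma 3.58.1 in R 4.3.3 (trend, 6 groups together, 32 residual degrees of freedom). Fold changes understate those of low genes. The design had planned 12 ratio tests; without the cavins, 6 were made, as exact permutation tests. Exon lengths came from GENCODE vM21. The fit was tested on simulated data with known changes. Members and lists were chosen with earlier results of these data known. From each list the genes called in 1 direction at all 3 times were named, and otherwise the 2 with the largest change among those called at a time; *Cav3*, *Ehd1*, *Src*, *Pacsin2*, *Flot1*, *Flot2*, *Lipe*, *Dnm2*, *St7* and the list values of *Aoc3* fall outside this rule and were chosen after their values were seen. Alternatives were 2 pseudocounts, 2 filters, 2 scalings, edgeR, DESeq2, separate fits, array weights, a replicate block and leaving out each mouse; chosen after the data were seen were those for times within a diet, the scaling of list genes and leaving aside CD mice 2 and 5 at 34 weeks. P-values set each result against the spread between mice, and do not cover differences between harvests or libraries that coincide with the groups.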

Additional observations from a re-analysis of the deposited data

Results flagged for a closer look

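Of 30 group by measure sets (3 genes and 2 ratios in 6 groups), 4 held a mouse whose gap to its nearest neighbour, as a share of the range of its group, passed the 95% limit, where chance would pass about 1 in 20. *Cav1* of HFD mouse 2 at 8 weeks lay below the other 5 (gap 0.800 of the range, at a log2 value of 11.55), *Cav2* of HFD mouse 4 at 20 weeks below the others (0.740, at 8.58), *Ehd2* of CD mouse 3 at 20 weeks below the others (0.654, at 8.99), and the *Cav1* to *Cav2* log2 ratio of CD mouse 5 at 20 weeks below the others (0.732, at 2.43).

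The *Cav1* response to HFD differed between 34 and 8 weeks (interaction of -0.84 on the log2 scale, limma adjusted p = 0.00698): all 6 HFD mice at 8 weeks were above the CD mean and 5 of 6 at 34 weeks below it.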

How the results depend on the processing

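The falls of *Cav1* and *Cav2* in HFD mice from 8 to 20 and from 8 to 34 weeks passed the threshold in all alternatives run (adjusted p at most 0.00631), as did the *Cav1* interaction of 34 against 8 weeks (at most 0.0288). *Ehd2* in HFD mice at 20 against 8 weeks was called in 5 of 11 other settings and in 2 of 38 with 1 mouse left out (adjusted p from 0.00206 to 0.130). The calls of HFD against CD within a time were less stable. At 8 weeks 0 of 3 genes were called with TMM factors, median-of-ratios factors, edgeR and DESeq2, 2 with separate fits or without CD mice 2 and 5 at 34 weeks, 3 with array weights, and 0 to 2 when 1 mouse was left out (0 without CD mouse 3 or 6 or HFD mouse 4 or 6). At 20 weeks 1 was called (*Cav1*) with TMM, median-of-ratios, edgeR, DESeq2, separate fits and array weights. At 34 weeks 0 were called without the filter on low values (adjusted p = 0.0524) and with separate fits (0.125), and 0 to 1 leaving out 1 mouse. The 20 against 8 week interaction gave 2 calls with array weights, 1 with DESeq2 and 1 without CD mice 2 and 5; that of 34 against 8 weeks gave 3 with array weights and 3 without those mice, and 1 to 3 leaving out 1 mouse (3 without CD mouse 5 or HFD mouse 1 or 6 at 34 weeks). In CD mice the 34 against 20 week count was 2 with median-of-ratios and 0 with edgeR (1 with TMM, *Cav2* in place of *Ehd2*), and the 34 against 8 week count was 0 without the filter, 0 without CD mice 2 and 5, and 0 to 1 leaving out 1 mouse (0 without CD mouse 1, 2 or 4 at 8 weeks or 2, 3 or 5 at 34 weeks). The cause of these changes was not tested.

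Differences near 0 changed sign. Leaving out 1 mouse gave -0.206 to 0.0204 for *Cav2* on HFD at 34 weeks, -0.167 to 0.0532 for the *Ehd2* interaction at 20 against 8 weeks, -0.0678 to 0.159 for the *Cav2* interaction at 34 against 20 weeks, -0.144 to 0.0111 and -0.140 to 0.0343 for *Cav1* in CD mice at 20 against 8 and 34 against 20 weeks, and -0.0902 to 0.105 for *Ehd2* in HFD mice at 34 against 20 weeks. Without CD mice 2 and 5 the *Cav2* interaction at 34 against 20 weeks was -0.155 and *Cav1* in CD mice 0.110 (34 against 20 weeks) and 0.0366 (34 against 8 weeks); array weights gave 1.36e-05 for the former. *Ehd2* in HFD mice at 34 against 20 weeks was -0.0298 with TMM, -0.0519 with median-of-ratios and -0.00939 with DESeq2. The *Cav1* to *Cav2* ratio on HFD ranged from -0.186 to -0.133 at 20 weeks and the *Ehd2* to *Cav1* ratio from 0.211 to 0.292 at 34 weeks with 1 mouse left out, with adjusted p up to 0.0519 and 0.0839.

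Mouse numbers did not pair the mice: of 90 pairs with the same number 30 correlated above 0.1 (median -0.068). Of 510 pairs with other numbers 195 did (median 0.0026). With the mouse number as a replicate block *Cav1* on HFD at 34 weeks was -0.43 (adjusted p = 0.0355), and the only call to change was *Ehd2* in HFD mice at 34 against 8 weeks (adjusted p = 0.0485). Between groups of 6 or 8 mice the SE was 0.14 to 0.17, and for interactions it was 0.21 to 0.24. These errors, not depth, limit what could be called.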
